A study of Mus musculus with 18 samples.

Results

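Mature pit cells and parietal cells are 2 end states of the epithelium in the body (corpus) of the mouse stomach, where acid is made. Their transcripts were set against each other here. The cells were those that the deposited annotation of the corpus dataset (dataset 2) placed in cluster 13, named mature pit in the study's text, and in cluster 1, the larger of 2 parietal clusters. They numbered 579, 121 mature pit and 458 parietal cells, of 3993 annotated cells in dataset 2 and 4484 in both datasets of the series. All were untreated wild-type cells of 10-week-old male C57BL/6J mice. Pool K and pool T, as the labels call the cell suspensions, each mixed the corpus gastric units of 3 mice. Living nucleated cells, Hoechst33342(+),ToPro3(-), were sorted as singlets onto 6 plates of 384 wells per pool and measured by Quartz-Seq2, a single-cell RNA-seq method that counts each captured polyadenylated molecule once by its unique molecular identifier (UMI). Pool K held 53 mature pit and 281 parietal cells and pool T held 68 and 177. Dataset 1, from 2 further pools of 3 mice with corpus and antrum sorted together, held 26 corpus mature pit and 57 parietal cells. They served as samples outside the choice of cells in dataset 2. Their clusters too were drawn by the authors from their own counts and named by known marker genes.

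Pit cells, also called surface mucous or foveolar cells, line the surface and the upper part of the gastric gland and cover it with a gel of mucin, trefoil factors and bicarbonate. Parietal cells sit deeper in the same gland, are packed with mitochondria, and secrete hydrochloric acid through the H+,K+-ATPase in response to histamine, acetylcholine and gastrin. Both arise from progenitors in the isthmus of the gland and neither divides.

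Cells of one pool are not independent, so their UMIs were added up per cluster and pool. This gave 4 sums: 2165683 and 2908998 UMIs for mature pit cells in pools K and T, and 12893877 and 8659273 UMIs for parietal cells. Levels are UMI counts scaled to a common total after TMM normalization (CPM). They are always given in the order pool K, pool T, with n = 2 pools per cluster. Log2 fold changes are mature pit over parietal, with their standard error (SE), from edgeR's quasi-likelihood test across the sums of all 14 epithelial clusters. A gene was called when its adjusted p was under 0.05 and its change at least 2-fold. Because the authors drew the clusters from these same counts, p-values describe how far apart the clusters lie. Each pool mixes mice, so the spread measured is that between pools.

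The study's authors named both clusters by known marker genes, so the markers below describe the clusters and do not test their names. *Gkn2*, a gastrokine secreted by pit cells (chromosome 6, 87350339 to 87356479, plus strand, GRCm39), stood at 55264 and 60001 CPM in mature pit sums and at 596 and 365 CPM in parietal sums (log2 fold change 6.90 ± 0.44 SE, edgeR adjusted p = 8.23e-13). *Atp4b*, the beta subunit of the H+,K+-ATPase (chromosome 8, 13436205 to 13446825, minus strand), stood at 83.2 and 57.3 CPM in mature pit sums and at 25941 and 23044 CPM in parietal sums (-8.46 ± 0.50 SE, edgeR adjusted p = 2.18e-13). On the 12 plates *Gkn2* ranged from 39797 to 54877 (median 46516) CPM in mature pit cells and from 214 to 772 (median 355) CPM in parietal cells. *Atp4b* ranged from 25.4 to 93.6 (median 58.5) and from 15992 to 23515 (median 20316) CPM, so that no plate of one cluster overlapped with a plate of the other. Plate values were scaled over the plate sums of these 2 clusters alone and lie on a somewhat different scale. All 5 pit markers (*Gkn2*, *Gkn1*, *Tff1*, *Muc5ac* and the water channel *Aqp3*) were higher in cluster 13, and all 3 parietal markers (*Atp4a*, *Atp4b* and *Kcne2*) in cluster 1.

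Markers of other epithelial cells were found at low to moderate levels in both clusters. *Muc6*, the neck cell mucin, stood at 42.6 and 77 CPM in mature pit and 17.7 and 41.5 CPM in parietal sums. It was called higher in mature pit cells (log2 fold change 1.07), but was at -0.44 and not called in dataset 1. Its log2 fold change was 0.51 without the mature pit sum of pool T and 0.49 without the parietal sum of pool K. The chief cell gene *Cblif* (intrinsic factor) was at 16.2 and 21.7 CPM against 26.2 and 28.2 CPM. The other tested chief cell marker, the pepsinogen gene *Pga5*, was called higher in mature pit cells, at 133 and 218 CPM against 50.2 and 56.2 CPM (1.74 ± 0.26 SE). The 3 markers of dividing cells differed in direction. *Mki67* stood at 9.13 and 9.01 CPM against 4.87 and 3.25 CPM and was called in mature pit cells (1.11 ± 0.44 SE). *Hmgb2* (26.9 and 20.1 CPM against 13 and 14 CPM, 0.79 ± 0.18 SE) and *Stmn1* (4.06 and 5.73 CPM against 9.84 and 9.30 CPM, -0.94 ± 0.29 SE) were not called. *Chga*, a marker of enterochromaffin-like cells, was at 13.7 and 13.1 CPM against 23.1 and 11.8 CPM and was not called (-0.42 ± 0.59 SE). *Col1a1* had 0 UMIs, and *Col3a1*, *Pecam1*, *Ptprc*, *Hba-a1*, *Dclk1*, *Trpm5* and *Hdc*, which mark stromal, endothelial, immune, red blood, tuft and enterochromaffin-like cells, had at most 5 UMIs in any of the 4 sums. Transcripts of each end state were also found in the other. *Gkn2*, *Gkn1*, *Tff1*, *Muc5ac* and *Mucl3* in parietal sums reached between 1.03 and 1.5% of their mature pit level in pool K and between 0.477 and 0.663% in pool T. *Atp4a* and *Atp4b* in mature pit sums reached between 0.249 and 0.366% of their parietal level. Levels of a pit transcript in parietal cells near 1% of its pit level can therefore not be told apart from this shared background.

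**Figure D1:**
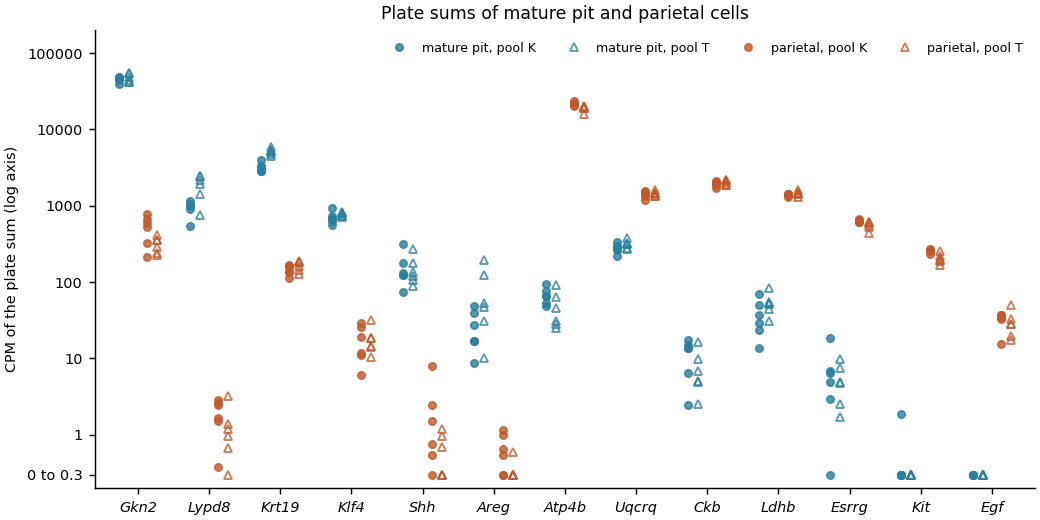
Level of single genes (CPM, on a log-type axis) in each of the 12 plate sums of mature pit cells and of parietal cells, with 1 point per plate and pools K and T in different symbols. *Gkn2* and *Klf4* sat high on all plates of mature pit cells and *Atp4b*, *Kit* and *Esrrg* on all plates of parietal cells. *Krt19* lay between 4560.8 and 5810.5 CPM on the pool T plates of mature pit cells and between 2860.4 and 3948.9 CPM on the pool K plates.

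Of 12922 genes tested, 2228 were called higher in mature pit cells (17.2% of those tested) and 2290 higher in parietal cells (17.7%), so that 35.0% were called in either direction. The counts of list members are read against these shares. The median log2 fold change of all genes tested was -0.006. The clusters differed little in depth: the median cell had 43361 and 44629 UMIs in mature pit cells and 44634 and 47039 in parietal cells. With each cell thinned to 10000 UMIs, the median number of genes with a UMI was 3344 and 3236 in mature pit cells and 3098 and 3156 in parietal cells. On the plates of pool K the plate medians ran from 3332 to 3387 genes in mature pit cells and from 3035.5 to 3132.5 in parietal cells, without overlap. In pool T they ran from 3161 to 3301.5 and from 3094 to 3241 and overlapped. Transcripts encoded by the mitochondrial genome took 4.42 and 4.59% of the UMIs of mature pit cells and 22.9 and 21.7% of those of parietal cells. In parietal cluster 8 they took 12.5 and 13.5%. Leaving the mitochondrial genes out before scaling gave 2128 and 2409 calls.

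**Figure D2:**
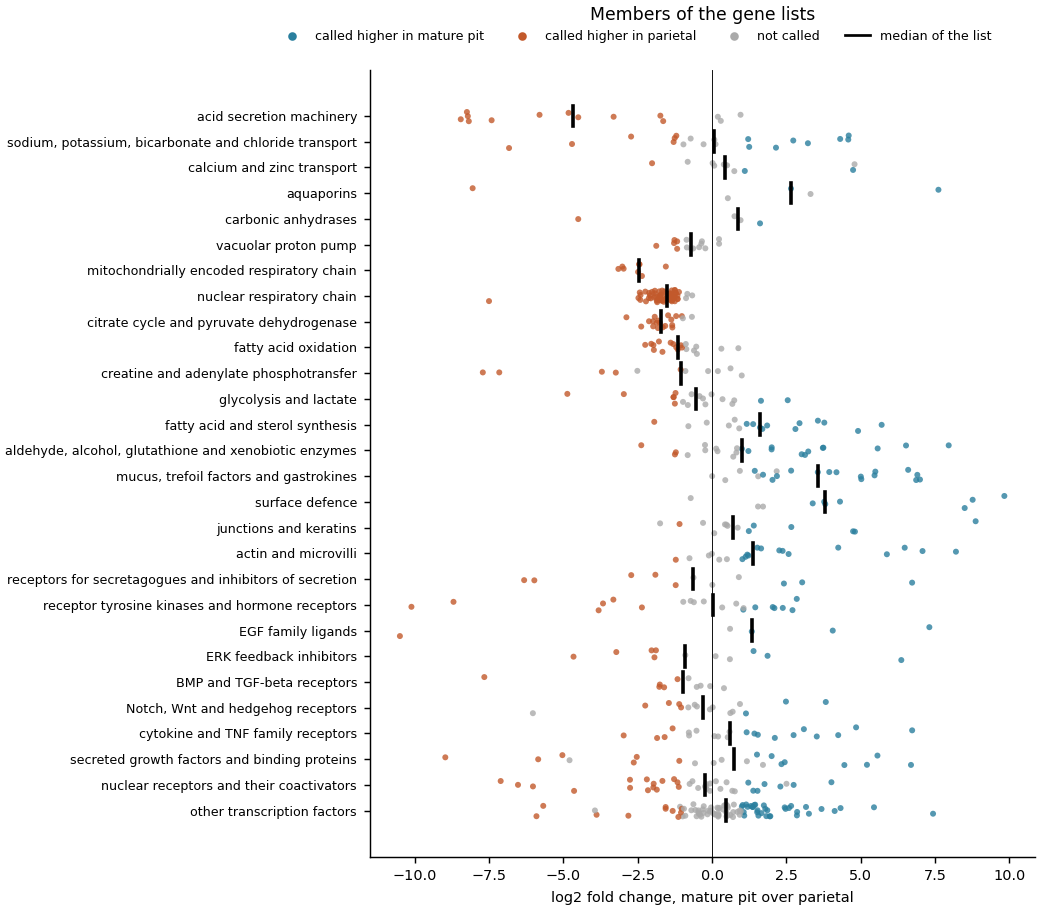
Log2 fold change of every tested member (grey or coloured points) of 28 gene lists, mature pit over parietal, with the median of each list as a bar. All tested members of the nuclear respiratory chain and of the citrate cycle lay on the parietal side, and no tested member of the mucus list lay on it.

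Acid secretion machinery separated the clusters most fully among the transport lists. All 14 listed genes were tested, 11 were called higher in parietal cells and 0 in mature pit cells, and the median log2 fold change was -4.67. *Atp4a*, the catalytic subunit of the proton pump (chromosome 7, 30411634 to 30424959, plus strand), stood at 112 and 90.1 CPM in mature pit cells and at 30618 and 28063 CPM in parietal cells (-8.19 ± 0.57 SE). The potassium channel that recycles K+ at the secretory membrane is built from *Kcnq1* and its partner *Kcne2*. *Kcnq1* was at 11.7 and 19.3 CPM against 921 and 849 CPM (-5.81 ± 0.25 SE). *Kcne2* was at 6.09 and 1.64 CPM against 1155 and 1074 CPM (-8.25 ± 0.34 SE). The inward rectifiers were less extreme, with *Kcnj16* at 135 and 156 CPM against 1590.3 and 1315 CPM (-3.31 ± 0.21 SE). *Kcnj15* was at 348 and 291 CPM against 1019 and 976 CPM (-1.65 ± 0.15 SE). In the parietal sums these 5 genes were 1st or 2nd among the 14 clusters, and the mature pit cluster ranked 13th for the pump and the *Kcnq1*-*Kcne2* channel but 3rd for both rectifiers.

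Anion and bicarbonate carriers of the parietal cell followed. *Slc4a2*, the basolateral chloride-bicarbonate exchanger, stood at 99.9 and 101 CPM in mature pit and 2354 and 2199 CPM in parietal sums (-4.50 ± 0.14 SE, edgeR adjusted p = 2.18e-18). *Clic6*, an intracellular chloride channel protein, stood at 122 and 117 CPM against 3359 and 3419 CPM (-4.83 ± 0.10 SE). *Slc26a9*, an apical chloride channel, was at 3.04 and 9.01 CPM against 1208 and 963 CPM (-7.42 ± 0.40 SE). *Slc26a7*, a chloride-bicarbonate exchanger, had 3 UMIs in the mature pit sums and 213 and 207 CPM in the parietal sums, a ratio of CPM of 309.6 with a counting interval of 106 to 1502 (95%, exact). The sodium-proton exchanger *Slc9a4* was not called, at 257 and 294 against 263 and 219.6 CPM (0.19 ± 0.09 SE). *Cftr* was near 0 in both clusters, at 0 and 0.410 CPM against 0.203 and 0.148 CPM. Carbonic anhydrase *Car2*, which supplies protons and bicarbonate, was high in both clusters, 6763 and 6704 CPM in mature pit and 3352 and 3587 CPM in parietal cells. Its difference (0.96 ± 0.11 SE) was just under the 2-fold minimum.

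Other ion transport was divided between the clusters. Of 23 listed sodium, potassium, bicarbonate and chloride transporters 19 were tested, 8 were called higher in mature pit and 6 in parietal cells, with a median of 0.08. On the pit side, the sodium-bicarbonate cotransporter *Slc4a4* stood at 90.8 and 93 CPM against 4.06 and 3.39 CPM (4.60 ± 0.19 SE), the highest level of the 14 clusters. Potassium channels higher in mature pit than in parietal cells were *Kcnn4*, opened by calcium (84.2 and 99.5 CPM against 4.46 and 4.87 CPM), and the background K+ channels *Kcnk1* (49.2 and 58.2 against 4.46 and 7.53) and *Kcnk6* (33.5 and 39.3 against 1.32 and 1.77). *Kcnn4* and *Kcnk1* were not highest in mature pit cells of the 14 clusters. Their means over both pools were 91.9 and 53.7 CPM there, and 125 and 67.4 CPM in isthmus cluster 5. The chloride channels *Clcn2* (2.73 ± 0.27 SE) and *Ano1* (2.15 ± 0.24 SE) were called on the same side. Parietal cells held more of the sodium pump subunit *Atp1b1* (3638 and 3144 CPM against 1425 and 1518 CPM in mature pit cells, -1.20 ± 0.08 SE). Further calls on that side were the potassium-chloride cotransporter *Slc12a7* (-2.73 ± 0.13 SE), the anion exchanger *Slc26a6* (-4.71 ± 0.30 SE) and the endosomal chloride-proton exchanger *Clcn3* (-1.30 ± 0.12 SE). The epithelial sodium channel subunit *Scnn1a* was called higher in parietal cluster 1 (-1.26 ± 0.12 SE) but was 0.36 on the log2 scale, on the pit side and not past the 2-fold minimum, against parietal cluster 8.

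Water channels and carbonic anhydrases changed by member. *Aqp4*, the basolateral water channel of parietal cells, had 1 and 1 UMIs in mature pit sums against 128 and 127 CPM in parietal sums, a ratio of 281 with a counting interval of 77.8 to 2325. *Aqp3* stood at 10.7 and 90.5 CPM in mature pit and 0.406 and 0 CPM in parietal sums. *Aqp11*, an aquaporin of intracellular membranes, was at 47.2 and 41.4 against 6.80 and 7.23 CPM (2.65 ± 0.18 SE). Of 8 listed carbonic anhydrases 4 were tested. The membrane-bound *Car9* was called higher in mature pit cells (668 and 615 against 189.9 and 230.1 CPM, 1.61 ± 0.11 SE). The catalytically inactive *Car8* was called in parietal cells (0.507 and 4.51 against 57.8 and 66.4 CPM, -4.50 ± 0.44 SE). For calcium and zinc, 11 of 15 listed genes were tested, 2 were called in mature pit cells and 1, the store-operated calcium sensor *Stim1* (-2.02 ± 0.14 SE), in parietal cells. Of 16 listed subunits of the vacuolar proton pump, which acidifies endosomes and lysosomes, 15 were tested, and 5 were called higher in parietal and 0 in mature pit cells (median -0.71). *Atp6v0e* showed the largest difference among them, 211 and 224 CPM against 791 and 809 CPM (-1.88 ± 0.10 SE).

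The respiratory chain differed between the clusters as a block. Of 78 listed nuclear genes of complexes I to V, 75 were tested, 72 were called higher in parietal cells and 0 in mature pit cells, and the median log2 fold change was -1.53. The other 3 tested members, *Sdhd* (-0.67 ± 0.11 SE), *Atp5d* (-0.83 ± 0.10 SE) and *Atp5e* (-0.88 ± 0.09 SE), lay on the same side under 2-fold. Summed over the list, these transcripts made up 27210 and 31520 CPM in mature pit and 89101 and 91514 CPM in parietal cells. Plate values did not overlap between the clusters for 74 of the 75 genes, where 24.7% of all genes tested did not overlap. *Uqcrq*, a subunit of complex III (chromosome 11, 53318749 to 53322047, minus strand), ranged from 220.3 to 377 (median 289) CPM on the plates of mature pit cells and from 1194 to 1608 (median 1449) CPM on those of parietal cells. In the pool sums it stood at 335 and 390.3 CPM against 1695 and 1752 CPM (-2.25 ± 0.10 SE).

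Each complex took part. In complex I, *Ndufb9* stood at 380.4 and 419 CPM against 2174 and 2096 CPM (-2.42 ± 0.09 SE). The core subunit *Ndufs1* was at 112 and 137 CPM against 688 and 659 CPM (-2.43 ± 0.11 SE). In complex II, the flavoprotein subunit *Sdha* was at 176 and 211 CPM against 1137 and 1024 CPM (-2.48 ± 0.10 SE). In complex III, the Rieske protein *Uqcrfs1* was at 352 and 399 CPM against 1553 and 1701 CPM (-2.12 ± 0.10 SE). In complex IV, *Cox4i1* was at 974 and 1113 CPM against 4660.4 and 4459 CPM (-2.13 ± 0.09 SE). ATP synthase subunits ran from -0.83 for *Atp5d* to -1.55 for *Atp5h*. *Cox7a1*, the subunit isoform known from heart and muscle, stood far outside the range of the others, at 2.54 and 2.87 CPM in mature pit and 481 and 517 CPM in parietal cells (-7.51 ± 0.23 SE, edgeR adjusted p = 1.33e-18). Its counterpart *Cox7a2* was at 493 and 632 CPM against 1868 and 1939.8 CPM (-1.76 ± 0.12 SE). Of 13 listed genes of the mitochondrial genome 8 were tested and all 8 were called higher in parietal cells (median -2.47). *mt-Cytb* was at 10071 and 12178 CPM against 58440.0 and 55859 CPM (-2.36 ± 0.09 SE). Against parietal cluster 8, 7 of the 8 were called and their median was -1.57. *mt-Co2*, *mt-Co3* and *mt-Atp6* had at most 3 UMIs in any sum. Nuclear copies of these genes could share their reads, which was not tested, so their level is uncertain.

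Fuel supply to the chain moved with it. Of 20 genes of the citrate cycle and pyruvate entry, 20 were tested, 18 were called higher in parietal and 0 in mature pit cells (median -1.71). *Suclg1* (-0.68 ± 0.10 SE) and *Mdh2* (-0.98 ± 0.09 SE) were the other 2. The carrier of pyruvate into mitochondria, *Mpc2*, stood at 132 and 134 CPM against 977 and 985 CPM (-2.88 ± 0.09 SE). Of 20 listed genes of fatty acid oxidation 19 were tested, and 12 were called higher in parietal and 0 in mature pit cells (median -1.15). *Acadvl*, which starts the oxidation of very long chains, was at 98.4 and 106 CPM against 507 and 466 CPM (-2.25 ± 0.10 SE). *Acaa2*, a thiolase of the last step, lay on the pit side at 397 and 417 CPM against 225 and 217 CPM (0.88 ± 0.09 SE), under 2-fold.

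High-energy phosphate and lactate enzymes differed by isoform. Cytosolic creatine kinase *Ckb* (chromosome 12, 111635789 to 111639008, minus strand) stood at 13.7 and 9.42 CPM in mature pit and 2331 and 2453 CPM in parietal cells (-7.71 ± 0.26 SE, edgeR adjusted p = 6.74e-18). Mitochondrial *Ckmt1* was at 823 and 972 CPM against 814 and 756 CPM (0.19 ± 0.12 SE). On the plates *Ckb* ranged from 2.44 to 17.4 (median 8.27) CPM and from 1706 to 2171 (median 2000.3) CPM. Adenylate kinase *Ak1* was at 1.52 and 1.64 CPM against 217 and 245 CPM (-7.16 ± 0.27 SE). Mitochondrial *Ak3* was at 541 and 634 against 282 and 307 CPM (0.997 ± 0.09 SE), higher on the pit side by a little under 2-fold. The ADP/ATP carrier *Slc25a4* was at 84.2 and 101 CPM against 1178 and 1252 CPM (-3.71 ± 0.15 SE). The creatine importer *Slc6a8* was at 2.54 and 9.83 against 60.8 and 63.2 CPM (-3.24 ± 0.31 SE). Of 18 tested glycolysis genes 2 were called in mature pit and 6 in parietal cells. Lactate dehydrogenase showed opposite isoforms: *Ldhb* stood at 48.2 and 67.2 CPM in mature pit and 1664 and 1743 CPM in parietal cells (-4.87 ± 0.16 SE). *Ldha* was at 1003 and 1221 CPM against 632 and 756 CPM (0.68 ± 0.12 SE, under 2-fold). The lactate and pyruvate carrier *Slc16a1* was called in mature pit cells, at 179 and 223 CPM against 36.4 and 32.3 CPM (2.54 ± 0.18 SE). *Gapdh* and *Pgam1* had few UMIs, and both have many near-identical copies in the genome that could share their reads, so their values are uncertain.

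Synthesis of fatty acids and sterols lay on the pit side. Of 18 listed genes 17 were tested, 11 were called higher in mature pit cells and 1 in parietal cells (median 1.61). Fatty acid synthase, *Fasn* (chromosome 11, 120696672 to 120715995, minus strand), stood at 430.1 and 419 CPM against 59.5 and 62.1 CPM (2.80 ± 0.11 SE). On the plates it ranged from 264 to 402 (median 341) CPM and from 42.3 to 63 (median 49.4) CPM. The desaturase *Scd2* stood at 423 and 249 CPM against 25.6 and 23 CPM (3.77 ± 0.30 SE). The elongase *Elovl6* was at 59.9 and 47.5 against 4.77 and 4.13 CPM (3.56 ± 0.28 SE). Among sterol genes, *Fdps*, which makes farnesyl diphosphate, was at 111 and 121 against 14.4 and 15.9 CPM (2.94 ± 0.19 SE). *Elovl1*, an elongase of very long chains, was the 1 member called in parietal cells (143 and 133 against 581 and 479 CPM, -1.95 ± 0.11 SE). The list was smaller in other settings: 6 members were called in mature pit cells against parietal cluster 8 (median 0.57), and 5 in dataset 1, where *Scd2* was 0.24 and *Insig1* -0.42 on the log2 scale.

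Enzymes that handle aldehydes, alcohols and electrophiles were called higher in mature pit cells for 12 of 23 tested members and in parietal cells for 3 (median 1.00). *Aldh3a1*, an aldehyde dehydrogenase, stood at 2463 and 2338 CPM against 12 and 6.64 CPM (7.96 ± 0.45 SE). *Adh7*, an alcohol dehydrogenase that acts on retinol and ethanol, was at 965 and 1122 CPM against 13.3 and 8.86 CPM (6.52 ± 0.21 SE). The quinone reductase *Nqo1* was at 1279 and 1497 CPM against 19.1 and 40.9 CPM (5.57 ± 0.26 SE). Glutathione transferases *Gsto1* (9151 and 11199.9 CPM against 967 and 1196 CPM, 3.23 ± 0.12 SE) and *Gsta4* (5271 and 6058 CPM against 392 and 454 CPM, 3.74 ± 0.13 SE) were the most abundant. These 5 genes stood highest in mature pit cells of all 14 clusters. The exceptions on the parietal side were the alcohol dehydrogenase *Adh1* (27.4 and 39.7 against 173 and 182 CPM, -2.38 ± 0.18 SE), *Gpx4* (-1.22 ± 0.10 SE), which reduces lipid peroxides, and *Prdx6* (-1.25 ± 0.11 SE).

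Mucus genes held the largest shares of mature pit transcripts. Of 23 listed genes 21 were tested, 16 were called in mature pit cells and 0 in parietal cells, with a median of 3.56. Their sum was 179105 and 196211 CPM in mature pit and 3007 and 2186 CPM in parietal cells. The secreted mucin *Muc5ac* (chromosome 7, 141342709 to 141372968, plus strand) was at 4365 and 5724 CPM against 65.3 and 37.9 CPM (6.60 ± 0.55 SE). The trefoil factor *Tff1* was at 48849.7 and 55625 CPM against 504 and 316 CPM (6.99 ± 0.45 SE). The membrane mucin *Muc1* was at 1116 and 1323 CPM against 23.4 and 31.3 CPM (5.49 ± 0.17 SE). *Tff2*, best known from mucous neck cells, stood at 12736 and 12280.4 CPM in mature pit cells, 7th of the 14 clusters, against 442 and 328 CPM (5.02 ± 0.31 SE). Enzymes that build the mucin sugars were called with them. Core 2 branching enzyme *Gcnt3* was at 859 and 982 CPM against 22.7 and 18.6 CPM (5.47 ± 0.14 SE). The fucosyltransferase *Fut2* was at 227 and 220.4 against 48.9 and 49.7 CPM (2.18 ± 0.10 SE). The enzymes that add the first sugar, *Galnt6*, *Galnt7* and *Galnt12*, had log2 fold changes of 5.004, 3.56 and 4.18. *C1galt1c1*, the chaperone of the core 1 enzyme, was at 126 and 115 CPM against 124 and 116 CPM (0.001 ± 0.10 SE).

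Genes of surface defence, keratins and actin were called more often in mature pit than in parietal cells. Of 17 listed defence genes 10 were tested, with 7 called in mature pit cells and 0 in parietal cells. With plates as the unit 4 passed the filter on low counts and 3 were called. *Duox2*, among the 7, had a UMI in only 9.43 and 10.3% of mature pit cells, unthinned. *Lypd8*, a GPI-anchored protein known to keep flagellated bacteria off the epithelium (chromosome 11, 58269863 to 58281554, plus strand), stood at 1192 and 2349 CPM against 2.13 and 1.62 CPM (9.83 ± 0.46 SE). Its near relative *Lypd8l* was at 3020.1 and 4359 CPM against 9.23 and 7.97 CPM, and reads could be split between the pair. The cytokine *Il18* was at 429.6 and 555 CPM against 23.6 and 26.6 CPM (4.30 ± 0.17 SE). *Psca*, a GPI-anchored surface antigen, was abundant in both clusters, 7775 and 10145 CPM in mature pit and 14542 and 14983 CPM in parietal cells (-0.72 ± 0.22 SE). Of 14 tested genes of junctions and keratins 6 were called in mature pit cells and 1, the junctional adhesion molecule *F11r* (121 and 133 CPM against 279 and 265 CPM, -1.10 ± 0.11 SE), in parietal cells (median 0.69). Keratin *Krt19* stood at 3924 and 6444 CPM against 172 and 199 CPM (4.80 ± 0.30 SE). *Krt8* was at 3221 and 4359.5 CPM against 568 and 628 CPM (2.66 ± 0.16 SE). Of 20 tested genes of actin and microvilli 14 were called in mature pit and 1 in parietal cells (median 1.37). The brush border motor *Myo1a* was at 114 and 136 CPM against 1.32 and 1.48 CPM (6.48 ± 0.35 SE). The actin bundler *Espn* was at 95.4 and 109 against 5.68 and 5.02 CPM (4.24 ± 0.14 SE). *Ezr*, which ties actin to the membrane of microvilli and of the parietal canaliculus, was higher in parietal cells by under 2-fold (1237 and 1297 CPM against 2178 and 2116 CPM, -0.76 ± 0.08 SE). *Lcp1*, another bundler, was the 1 member called there (-1.22 ± 0.09 SE).

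Receptors for the hormones and transmitters of acid secretion were split. Of 21 listed receptors 11 were tested, 5 were called in parietal cells and 3 in mature pit cells. The histamine receptor *Hrh2* was at 19.8 and 30.7 CPM in mature pit and 170.4 and 169 CPM in parietal cells (-2.72 ± 0.18 SE). The gastrin receptor *Cckbr* was at 16.2 and 9.83 against 34.5 and 24.9 CPM (-1.23 ± 0.40 SE). The muscarinic receptor *Chrm3* had 1 UMI in mature pit sums against 18.5 and 13 CPM, a ratio of 71.6 with a counting interval of 12.7 to 2839. Receptors that restrain secretion were called in parietal cells too. The somatostatin receptor *Sstr2* was at 24.9 and 23.3 against 96.5 and 83.8 CPM (-1.91 ± 0.17 SE), and the prostaglandin E2 receptor *Ptger3* had 1 UMI against 22 and 18.2 CPM, a ratio of 90.2 with a counting interval of 16.1 to 3573. All 5 were called in the cell that secretes the acid. Mature pit cells carried the secretin receptor *Sctr* (chromosome 1, 119934615 to 119991268, plus strand) at 152 and 158 CPM against 1.72 and 1.03 CPM (6.73 ± 0.28 SE). That was its highest level of the 14 clusters. The prostaglandin receptor *Ptger4* was at 11.2 and 20.9 against 1.83 and 2.21 CPM (3.03 ± 0.36 SE). It was not highest in mature pit cells, with a mean of 16.0 CPM there and 47.3 CPM in neck cluster 0.

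Growth factor receptors were divided by family. Of 22 listed genes 20 were tested, with 7 called in mature pit and 6 in parietal cells. The 3 tested receptors of the EGF family were called in mature pit cells. *Egfr* stood at 30.4 and 32.4 against 8.22 and 6.20 CPM (2.10 ± 0.19 SE). *Erbb2* was at 78.1 and 77.8 against 30.9 and 25.5 CPM (1.45 ± 0.11 SE). *Erbb3* was at 99.4 and 117 against 20.4 and 21.5 CPM (2.38 ± 0.12 SE). Parietal cells held *Kit*, the receptor of stem cell factor (chromosome 5, 75735576 to 75817404, plus strand), at 309 and 249 CPM against a single UMI in the mature pit sums, a ratio of 1256 with a counting interval of 225 to 49625. On the plates it ranged from 168 to 268 (median 246) CPM in parietal cells. Its ligand *Kitl* was higher in mature pit cells, 196 and 193 CPM against 51 and 45.6 CPM (2.003 ± 0.11 SE). The prolactin receptor *Prlr* had 1 UMI in mature pit sums against 119 and 89.6 CPM, a ratio of 473 with a counting interval of 84.8 to 18693. The growth hormone receptor *Ghr* was at 30.4 and 24.6 against 369.8 and 325 CPM (-3.67 ± 0.16 SE). *Lifr* was at 47.2 and 39.3 against 227 and 214 CPM (-2.36 ± 0.12 SE). The IGF1 receptor *Igf1r* was at 11.7 and 14.3 against 147 and 115 CPM (-3.32 ± 0.23 SE). The insulin receptor *Insr* lay under the minimum (-0.61 ± 0.12 SE). Of 10 tested receptors of BMP and TGF-beta 5 were called in parietal and 0 in mature pit cells. The most extreme was *Bmpr1b*, with 2 UMIs against 108 and 85.8 CPM, a ratio of 218 with a counting interval of 60.2 to 1799.9.

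Cytokine and TNF family receptors were more often called in mature pit cells, 10 of 21 tested against 4 in parietal cells (median 0.59). *Tnfrsf21*, a death domain receptor, was at 347 and 401 CPM against 22.1 and 17 CPM (4.24 ± 0.14 SE). The interferon gamma receptor chain *Ifngr1* was at 144 and 184 against 39.8 and 36.2 CPM (2.11 ± 0.12 SE). The interferon alpha and beta receptor chain *Ifnar2* lay on the other side, 3.04 and 3.28 against 27 and 23 CPM (-2.98 ± 0.29 SE), as did *Il6st*, the shared chain of the interleukin 6 family (-1.33 ± 0.14 SE). *Ifnar1*, the other chain of the alpha and beta receptor, was not called (-0.78 ± 0.21 SE). Notch, Wnt and hedgehog receptors gave 3 calls in mature pit and 4 in parietal cells of 16 tested. *Notch2* (3.82 ± 0.35 SE) and *Lrp5* (2.48 ± 0.20 SE) were among the first and *Fzd4* (-1.45 ± 0.14 SE) and *Fzd6* (-2.25 ± 0.21 SE) among the second.

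Ligands of the EGF receptor were split between the end states. *Tgfa* was at 70.5 and 77 CPM in mature pit and 3.75 and 5.31 CPM in parietal cells (4.06 ± 0.19 SE). *Areg* was at 30.4 and 107 CPM against 0.609 and 0.148 CPM (7.31 ± 0.84 SE). *Egf* itself (chromosome 3, 129470410 to 129549093, minus strand) had 0 UMIs in both mature pit sums and stood at 36.6 and 36.9 CPM in parietal sums, at least 26.7-fold higher, computed against 3 UMIs in the mature pit sum. *Btc* was called in mature pit cells (1.34 ± 0.19 SE) and *Hbegf* was not called, at 19.8 and 30.3 against 15.4 and 18.5 CPM. Of the 11 tested inhibitors that ERK signalling induces, 3 were called in mature pit and 5 in parietal cells. *Dusp6*, a phosphatase of ERK, had the largest difference among those 5 (9.64 and 10.2 CPM against 269 and 237 CPM, -4.66 ± 0.19 SE). It was followed by *Lrig1*, which restrains receptors of the EGF family (20.3 and 18 against 178 and 178 CPM, -3.22 ± 0.15 SE). The pit side held *Spred1* and *Spred2* (1.87 ± 0.17 and 1.39 ± 0.15 SE).

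Other secreted factors gave 8 calls in mature pit and 6 in parietal cells of 20 tested. Sonic hedgehog, *Shh* (chromosome 5, 28661813 to 28672254, minus strand), stood at 186 and 177 CPM in mature pit cells against 2.54 and 0.590 CPM in parietal cells (6.69 ± 0.24 SE). Its plates ranged from 74.4 to 318 (median 128) CPM and from 0 to 7.99 (median 0.725) CPM. Indian hedgehog, *Ihh*, was at 107 and 114 against 21.3 and 22.6 CPM (2.33 ± 0.15 SE). *Bmp2* was at 73.6 and 97.9 against 1.83 and 1.77 CPM (5.56 ± 0.20 SE). Parietal cells held *Igfbp2*, a carrier of insulin-like growth factors (chromosome 1, 72863606 to 72891634, plus strand), at 1089 and 991 CPM against 2.54 and 1.64 CPM in mature pit cells (-8.98 ± 0.35 SE). They also held the angiogenic factors *Vegfb* (627 and 625 CPM against 19.8 and 18.4 CPM, -5.04 ± 0.13 SE) and *Vegfa* (322 and 289 against 50.2 and 54.9 CPM, -2.54 ± 0.19 SE). Of the hedgehog ligands tested, both were therefore on the pit side, and the *Vegf* genes on the parietal side.

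Nuclear receptors and their coactivators leaned to the parietal side, with 15 of 37 tested genes called there and 7 in mature pit cells. *Esrrg*, an estrogen-related receptor that acts on genes of oxidative metabolism (chromosome 1, 187340988 to 187947082, plus strand), was at 9.13 and 6.55 CPM in mature pit and 753 and 679 CPM in parietal cells (-6.53 ± 0.22 SE, edgeR adjusted p = 6.37e-18). On the plates it ranged from 0 to 18.7 (median 4.91) CPM and from 446 to 674 (median 615) CPM. The related *Esrra* was at 78.6 and 99.5 against 202 and 200.3 CPM (-1.16 ± 0.18 SE), and *Esrrb* had 2 UMIs against 31.6 and 30.8 CPM, a ratio of 69.1 with a counting interval of 19 to 572. Coactivators that serve these receptors, *Ppargc1a* (7.61 and 4.91 against 179.7 and 127 CPM, -4.64 ± 0.26 SE) and *Ppargc1b* (19.8 and 20.1 against 137 and 134 CPM, -2.76 ± 0.16 SE), were called on the same side. *Pprc1*, the third of that family, was not called (0.49 ± 0.19 SE), nor were *Nrf1* (0.52 ± 0.23 SE), *Gabpa* (0.22 ± 0.15 SE) and *Tfam* (-0.46 ± 0.10 SE), other factors known to act on mitochondrial genes. Mature pit cells held more of *Hnf4a* (141 and 143 against 22.5 and 19.5 CPM, 2.74 ± 0.10 SE) and *Pparg* (96.4 and 145 against 34 and 38.1 CPM, 1.76 ± 0.21 SE). *Ppard* (1.22 ± 0.15 SE), *Rara* (1.53 ± 0.12 SE) and their partner *Rxra* (1.38 ± 0.14 SE) were called with them. *Ppara* had 0 UMIs in mature pit sums and 2.94 and 4.13 CPM in parietal sums.

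**Figure D3:**
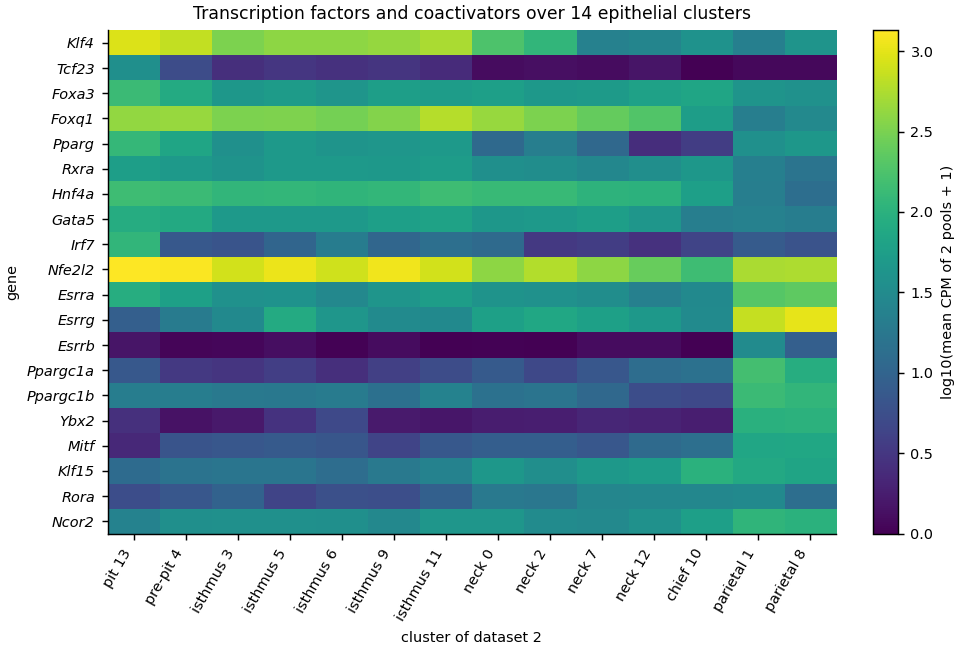
Levels of transcription factors and coactivators in mature pit cells and in parietal cells, beside their levels in the other epithelial clusters. Each value is the mean CPM of both pools, on a log10-type colour scale. *Klf4* and *Tcf23* were highest in mature pit cells of the 14 clusters, while *Esrrg*, *Mitf* and *Ybx2* were high in both parietal clusters and low in mature pit cells.

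Other transcription factors gave 34 calls in mature pit and 10 in parietal cells of 94 tested (median 0.48). *Klf4* (chromosome 4, 55527139 to 55532528, minus strand), a Krüppel-like factor of differentiated epithelia, stood at 881 and 968 CPM against 19.9 and 22.7 CPM (5.45 ± 0.11 SE, edgeR adjusted p = 3.06e-21). It ranged from 565 to 928 (median 728) CPM and from 6.01 to 31.7 (median 16.4) CPM on the plates. The forkhead factors *Foxq1* (358 and 477 CPM against 19.6 and 22.4 CPM, 4.32 ± 0.15 SE) and *Foxa3* (122 and 151 against 45.9 and 35.1 CPM, 1.74 ± 0.11 SE) were called with it. *Foxa1* (0.48 ± 0.09 SE) and *Foxa2* (-0.56 ± 0.10 SE) lay under 2-fold in opposite directions. *Tcf23* had 3 UMIs in the parietal sums against 24.9 and 45.1 CPM in mature pit cells, a ratio of 199.8 with a counting interval of 67.1 to 979. *Irf7*, a factor of the interferon response, was at 120.2 and 109 CPM against 4.36 and 9.30 CPM (4.12 ± 0.23 SE). *Id1*, an inhibitor of basic helix-loop-helix factors and a target of BMP signals, was at 677 and 942 CPM against 101 and 124 CPM (2.85 ± 0.21 SE). *Nfe2l2*, which drives genes of the response to electrophiles, was at 1339 and 1352 CPM against 553 and 534 CPM (1.31 ± 0.09 SE). On the parietal side stood *Mitf* (0.507 and 2.05 against 70.1 and 71.9 CPM, -5.68 ± 0.33 SE) and the Y-box protein *Ybx2* (3.04 and 0.410 against 98.4 and 95.6 CPM, -5.91 ± 0.37 SE). *Klf15* (14.7 and 7.78 against 81.1 and 72.6 CPM, -2.82 ± 0.23 SE) and *Id2* (283 and 383 CPM against 789 and 887 CPM, -1.33 ± 0.20 SE) were called there as well. *Gata4* (0.25 ± 0.10 SE), *Gata6* (-0.31 ± 0.09 SE) and *Sox9* (0.20 ± 0.13 SE) lay under 2-fold.

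Promoter windows of respiratory, acid secretion and mucus genes were searched for short motifs. Windows of 250 bases before the start of the canonical transcript of each protein-coding gene (GRCm39, GENCODE M39) were read on both strands for AAGGTCA, the extended half-site that estrogen-related and other nuclear receptors are known to bind, and for TGTTTAC, a forkhead motif. The half-site holds AGGTCA, the core shared by many nuclear receptors. Both motifs are printed in capitals as they read on the strand of the gene, so that TGACCTT is AAGGTCA on the other strand. *Ndufs5*, a subunit of complex I (chr4:123612003-123612252, minus strand, 38.6 and 45.1 CPM against 133 and 139 CPM, -1.69 ± 0.13 SE) and *Kcnj16* (chr11:110858593-110858842, plus strand) stand for genes called in parietal cells whose window held the half-site, and *Muc5ac* (chr7:141342459-141342708, plus strand) for the single mucus gene of 21 that held the forkhead motif:
Ndufs5: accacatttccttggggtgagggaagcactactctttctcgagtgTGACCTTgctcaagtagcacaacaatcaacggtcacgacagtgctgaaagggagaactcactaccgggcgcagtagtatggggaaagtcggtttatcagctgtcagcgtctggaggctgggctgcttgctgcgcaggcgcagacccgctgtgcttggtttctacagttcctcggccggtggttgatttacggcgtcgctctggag
Kcnj16: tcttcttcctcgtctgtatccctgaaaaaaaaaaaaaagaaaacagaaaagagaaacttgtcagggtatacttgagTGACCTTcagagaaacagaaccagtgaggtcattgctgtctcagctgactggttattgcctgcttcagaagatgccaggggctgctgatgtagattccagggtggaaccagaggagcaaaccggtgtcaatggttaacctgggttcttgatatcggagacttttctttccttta
Muc5ac: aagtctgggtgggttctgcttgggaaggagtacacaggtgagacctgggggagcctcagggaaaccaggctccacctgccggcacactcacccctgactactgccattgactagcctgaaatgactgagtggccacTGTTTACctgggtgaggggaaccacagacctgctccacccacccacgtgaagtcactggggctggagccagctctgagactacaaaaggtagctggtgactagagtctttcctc
The half-site was present in 3 of 75 windows of the nuclear respiratory chain (4.0%), 0 of 20 of the citrate cycle, 1 of 14 of acid secretion and 1 of 21 of mucus, beside 3.93% of 21751 windows of all protein-coding genes. It was in 4.39% of the windows of genes called in parietal cells, in 3.22% of those called in mature pit cells and in 3.31% of all genes tested. The forkhead motif was in 1 of 21 windows of mucus genes and 3 of 75 of the nuclear respiratory chain (4.0%). It was in 2.20% of windows of genes called in mature pit cells, 2.44% of those called in parietal cells and 2.26% of all genes tested. The shares of the 2 groups lay close to those of all genes, and a match describes letters only.

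Genes of the largest folds, named by a fixed rule, had further roles. On the pit side they were *Lypd8*, *Lypd8l* and *Aldh3a1* with 5 others. *Rep15*, a Rab15 effector, was at 122 and 163 against 0.203 and 0.443 CPM, and *Ces2c*, a carboxylesterase, at 102 and 212 against 0.507 and 0.443 CPM. *Capn9*, a subunit of the stomach calpain, was at 203 and 302 against 1.32 and 0.148 CPM, and its partner *Capn8* at 29.4 and 41.8 against 0.304 and 0.148 CPM. *Egln3*, a prolyl hydroxylase that marks hypoxia-inducible factors for decay, was at 199.9 and 170.0 against 0.811 and 0.738 CPM, and *Sectm1b* at 372 and 448 against 1.62 and 0.295 CPM. On the parietal side they were *Igfbp2* and *Atp4b* with 6 others. *Tmprss9*, a serine protease, had 1 UMI in mature pit sums and 516 and 458 CPM in parietal sums, a ratio of 2174 with a counting interval of 390.1 to 85889.6. *Rnase1*, a secreted ribonuclease, had 2 UMIs against 485 and 482 CPM, a ratio of 1067 with a counting interval of 295 to 8813. *Apoa1*, the main protein of high-density lipoprotein, was at 28.9 and 34.4 CPM against 13963 and 13801 CPM and *Tnni3*, troponin I of heart muscle, at 4.06 and 3.69 CPM against 1288 and 1353 CPM. *Hamp2*, of the hepcidin family, was at 4.57 and 1.64 CPM against 1282 and 1286 CPM, where reads could be shared with its near copy *Hamp*, and *Smim38* at 14.7 and 10.2 CPM against 4279 and 4651 CPM. All 8 parietal genes stood highest in cluster 1 of the 14 clusters and all 8 pit genes in cluster 13. Across all calls, 955 of the 2228 pit genes (42.9%) were highest in cluster 13, and 1259 of the 2290 parietal genes (55.0%) in cluster 1. Genes called for a higher level in a cluster are more often highest there, and the share over all genes tested was not computed.

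Single cells show how evenly these transcripts were spread. With each cell thinned to 10000 UMIs, which left out 4 mature pit and 0 parietal cells, *Klf4* had a UMI in 98 and 98.5% of mature pit cells and in 9.96 and 10.2% of parietal cells. *Esrrg* had one in 95.7 and 97.2% of parietal cells and in 5 of 50 and 3 of 67 mature pit cells. *Kit* had one in 85.8 and 79.7% of parietal cells and in 0 of 50 and 0 of 67 mature pit cells, where 0 cells allow up to 6.00 and 4.48% of cells with a UMI at that depth and give no limit on cells that express it. Unthinned, 1 of 53 and 0 of 68 mature pit cells had a *Kit* UMI. *Shh* had one in 62.0 and 58.2% of mature pit cells and *Sctr* in 66.0 and 65.7%. Others had a UMI in a smaller share of their cluster at that depth: *Egf* had a UMI in 12.5 and 18.6% of parietal cells (30.6 and 29.9% unthinned), *Aqp4* in 22.1 and 24.9% (28.1 and 30.5%) and *Prlr* in 44.1 and 34.5% (64.8 and 55.9%). *Areg* had one in 22.0 and 31.3% of mature pit cells (49.1 and 57.4% unthinned), and *Duox2*, an oxidase that makes hydrogen peroxide, in 6.00 and 7.46% (9.43 and 10.3% unthinned). A single cell held 86.1% of the *Duox2* UMIs of mature pit cells in pool K, and another 52.1% in pool T. Exact binomial intervals of these shares, 18.0 to 40.7% for example for *Aqp3* in mature pit cells of pool T (28.4%), cover counting error only. As the background, *Gkn2* had a UMI in 87.5 and 87.6% of parietal cells and *Atp4b* in 25 of 50 and 22 of 67 mature pit cells. Median depths were 43361 to 47039 UMIs per cell. For the most abundant transcripts a UMI does not mark the cell type.

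**Figure D4:**
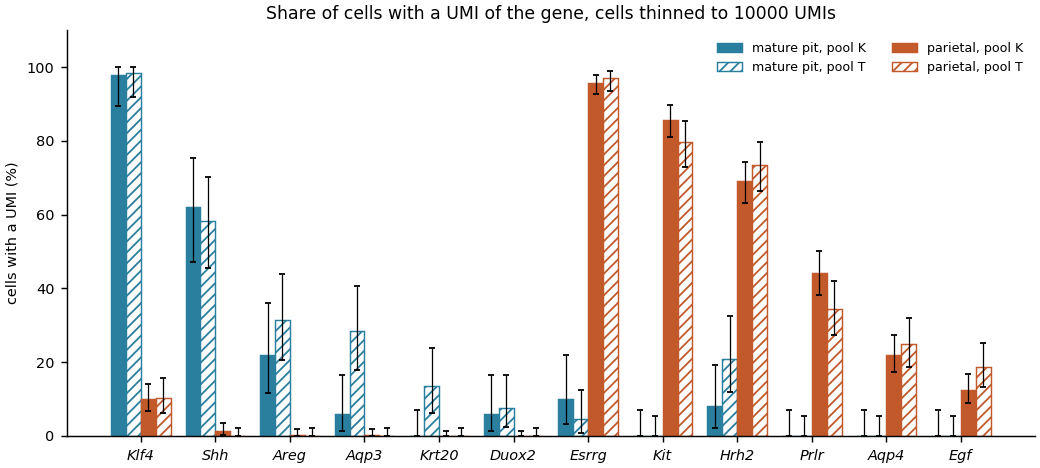
Percent of cells with at least 1 UMI after thinning to 10000 UMIs, for mature pit cells and parietal cells of pools K and T, with exact 95% binomial intervals as bars. *Klf4*, *Esrrg* and *Kit* marked most cells of 1 cluster, whereas *Egf*, *Aqp4*, *Areg*, *Aqp3* and *Krt20* had a UMI in at most 31.3% of the cells of their cluster at that depth.

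Mature pit cells of pool T held a set of transcripts that those of pool K held at a lower level. *Krt20*, a keratin of fully differentiated surface epithelium, was at 3.04 and 129 CPM in the sums, 0 to 14.6 CPM on the plates of pool K and 5.03 to 227 CPM on those of pool T. *Aqp3* was at 10.7 and 90.5 CPM, and its plates did not overlap between pools, 0 to 26.2 CPM against 30.5 to 144 CPM. *Krt20* had a UMI in 0 of 50 thinned cells of pool K and in 13.4% of 67 cells of pool T. Unthinned it was 1 of 53 cells, which held 6 UMIs, and 19.1% of 68 cells. The study's text gives *Krt20* as a marker of pit cells of the antrum and reports cluster 13 to be without it. Whether the pool T cells with *Krt20* came from the antrum was not tested. Of 1879 genes called in mature pit cells with at least 20 UMIs there, 39 (2.08%) were at least 3-fold higher in pool T and 5 (0.266%) in pool K, beside 69 (0.707%) and 10 (0.102%) of all 9759 genes tested with as many UMIs. In parietal cells, 28 and 29 of all 11229 such genes were, and 0 and 1 of the 2276 called there. The pools differ in mice, suspension, plates and, by the study's methods, the person who prepared them, which cannot be told apart here.

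Dataset 1 gave the same contrast in other mice. Of 10229 genes tested there, 1682 (16.4%) were called higher in mature pit cells and 2036 (19.9%) in parietal cells, 36.3% in either direction. Of 1807 pit calls of dataset 2 that were tested in both, 1230 (68.1%) were called in the same direction and 13 in the opposite one. The 1230 were 74.6% of the 1649 pit calls of dataset 1 tested in both. For parietal calls it was 1423 of 1751 (81.3%), 70.2% of the 2027 calls of dataset 1, with 1 opposite. The respiratory list gave 71 calls in parietal cells and 0 in mature pit cells, acid secretion 10 and 1, the citrate cycle 17 and 0, and mucus 0 and 15. The 1 exception for acid secretion was *Slc9a4* (1.13 on the log2 scale in dataset 1). *Klf4* had a log2 fold change of 5.65, *Esrrg* of -7.30, *Ckb* of -9.09, *Ldhb* of -7.18, *Kit* of -10.50 and *Shh* of 8.42, all called in the direction of dataset 2. *Myc* was called in opposite directions, at 67.5 and 40.5 CPM against 14.9 and 15.1 CPM in dataset 2 (1.82 ± 0.27 SE) and at -1.97 on the log2 scale in dataset 1. Of 14 genes that respond to tissue dissociation, all tested, 1 was called in mature pit and 1 in parietal cells in dataset 2 (median -0.39), and 1 and 5 in dataset 1. *Fos* was at 0.54 ± 0.27 SE in dataset 2 and -1.38 in dataset 1, and the part of dissociation in the differences was not tested.

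**Figure D5:**
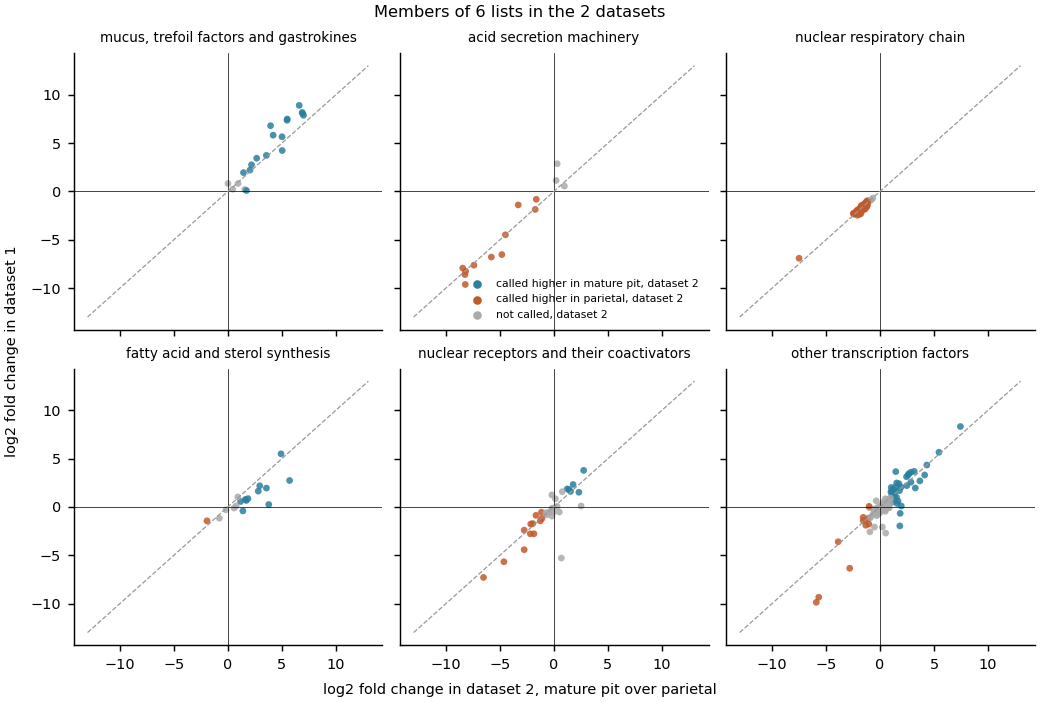
Log2 fold change of mature pit over parietal in dataset 2 (horizontal axis) against dataset 1 (vertical axis) for the tested members of 6 gene lists, 1 point per gene. Members of the respiratory chain lay in the lower left and mucus genes in the upper right in both datasets, while members of fatty acid and sterol synthesis lay lower in dataset 1.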

How the data were processed

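The authors converted base calls with bcl2fastq 2.20.0.422 and aligned the Quartz-Seq2 reads to GRCm39 (Gencode M27 gene models) by STAR, after steps of FASTX-Toolkit and Drop-seq tools. They deposited whole UMI counts per gene and cell, not normalized, for cells with at least 2500 detected genes. Clusters are those of the deposited annotation (Seurat), with the names of the study's text. No doublet caller was run on the sorted singlets.

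Counts were summed per cluster and pool and tested with edgeR 4.0.16 in R 4.3.3 (TMM, filterByExpr, quasi-likelihood F test, no covariate) over 28 sums of 14 clusters (14 residual degrees of freedom), with Benjamini-Hochberg adjustment over 12922 genes. Dataset 1 was fitted alike (14 sums, 10229 genes). Standard errors were taken from the F statistic, as the absolute log2 fold change divided by its root. The fit was tested on simulated data. Both clusters of a pool share their mice, so the pool number pairs the sums (correlation of deviations 0.166, dataset 1 0.0121). Genes were named by a rule: the 8 largest folds in each direction (called, with 10 UMIs or more in each sum of the higher cluster and a difference of the same sign in both pools, the fold bounded against 3 UMIs where no lower sum exceeds that), the 6 largest CPM differences, the highest up to 4 called members per list and direction, the markers, and the factors *Foxa3*, *Pparg*, *Tcf23*, *Klf4*, *Esrrg*, *Esrra*, *Ybx2* and *Mitf*. Further list members were named where a group is described. Cell members, gene lists and tests were chosen with earlier results of these data known. Listed genes absent from the count tables were not analysed here, and some members counted in their lists are not reported here by name. Gene coordinates and promoter windows are from GENCODE M39 on GRCm39. Alternatives were the pool block, DESeq2 1.42.0, other scalings and filters, thinning, plates as the unit, parietal cluster 8 and leaving out each sum.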

Additional observations from a re-analysis of the deposited data

Results flagged for a closer look

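In 46 groups of 6 plates, the extreme plate was set against the others by Dixon's ratio. A plate lay beyond the 95% limit in 6 groups, where chance gives about 1 in 20 for normally distributed values. *Krt20* in mature pit cells of pool K was at 14.6 CPM on 1 plate and at 0 on the other plates, which sets the ratio at 1 whatever the value. *Atp4b* in parietal cells of pool T had its lowest plate at 15992 CPM, with the next at 19358 CPM. In parietal cells of pool K the lowest plate for *Egf* had 15.5 CPM (next 32.8 CPM) and the lowest for *Kit* 236 CPM (next 257 CPM). Mature pit cells of pool K had 1 plate with a median of 3387 detected genes at 10000 UMIs (next 3352) and 1 with a median of 3.59% mitochondrial UMIs (next 4.41%).

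*Pga5*, a pepsinogen of chief cells, was called in opposite directions in the 2 datasets, with a log2 fold change of 1.74 ± 0.26 SE (higher in mature pit cells) in dataset 2 and -2.77 (higher in parietal cells) in dataset 1. The difference between the datasets was not tested.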

How the results depend on the processing

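The main test called 2228 genes in mature pit and 2290 in parietal cells. With the pool as a replicate block it called 2244 and 2298, of which 2216 and 2279 were shared with the main calls, and the block changed no call of a named gene. With no fold minimum 3871 and 3945 genes were called. With plates as the unit 1136 and 1366 of 7489 genes tested were called, where fewer genes passed the filter on low counts. Scaling by total UMIs gave 2622 and 1949 calls (57.4% of calls on the pit side against 49.3%) and moved the median of all genes from -0.006 to 0.155 on the log2 scale. Leaving out each sum gave 1914 to 2124 and 2360 to 2424 calls, and in dataset 1 1561 to 1656 and 1831 to 1996. With cells thinned to 5000 UMIs the median of detected genes was 2152 and 2076 in mature pit cells and 1979 and 2029 in parietal cells, and without thinning 6562 and 6516 against 6359 and 6555, where the order of the clusters turned in pool T. Against parietal cluster 8, *Scnn1a* was at 0.36, *Bmp7* at 0.21 and *Hmgb2* at -0.29 on the log2 scale, each on the other side of 0 than in the main test (where *Hmgb2* was not called), and 22 of 177 named genes lost their call. *Chga*, not called, ran from -0.85 to 0.12 when a parietal sum was left out. The cause of these changes was not tested. Of 173 called named genes 136 kept direction and call in every setting. Dataset 1 with no fold minimum, chosen after seeing the data, gave 2316 and 2781 calls. Mature pit sums held fewer UMIs than parietal sums, and 0 UMIs there allow up to 1.38 CPM (3 UMIs, mean of both pools), from counting error alone.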

Other observations

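The second parietal cluster (cluster 8) differed from cluster 1 in its distance from mature pit cells for some gene groups. Of 14 genes that respond to tissue dissociation, 9 were called higher in cluster 8 than in mature pit cells (median -1.33), beside 1 for cluster 1 (median -0.39). *Fos* stood at 384 and 391 CPM in mature pit cells, 244 and 289.6 CPM in cluster 1 and 905 and 550.1 CPM in cluster 8. *Atf3*, a stress-induced factor, stood at 27.9 and 125 CPM, 136 and 196 CPM, and 554 and 372 CPM. Acid secretion genes gave 11 calls of 14 against either parietal cluster, and the nuclear respiratory chain 74 of 75 against cluster 8. The difference between the parietal clusters was not tested.

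Pit transcripts in parietal cells were unevenly spread in pool K. A single parietal cell, with 1156 *Gkn2* UMIs, held 19.7% of all *Gkn2* UMIs of the 281 parietal cells there, whereas the highest of the 177 cells of pool T held 4.08%. The highest mature pit cell held 3.97 and 3.09% in pools K and T.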
